A study of Mus musculus with 14 samples.

Results

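The lysosome, proton pump and autophagy genes examined here are 50 mouse genes chosen by symbol, and all 50 were found among the 37310 Ensembl gene identifiers shared by 3 deposited tables of raw gene counts. They comprise 13 subunits of the vacuolar proton pump (V-ATPase), 3 transcription factors of the MiT/TFE family, 16 lysosomal membrane and lumen genes and 18 autophagy genes. The 14 RNA-seq libraries were of pancreatic β-cells or of whole islets. The strain of all 14 was given as C57BL/6. Wild-type β-cells came from adult mice at postnatal day 45 (3 libraries) and neonatal mice at postnatal day 6 (3 libraries) by a procedure the sources used here do not give. Whole islets at 8 weeks of age came from mice labelled TSC1 KO (2 libraries), whose Tsc1 the series text describes as deleted in β-cells, and from their controls (2 libraries), both with the prefix RC. Whole islets at 4 weeks of age came from mice labelled Db (2 libraries) and controls (2 libraries), both with the prefix BKS. The symbol db denotes a mutation of the leptin receptor gene. The sources used here give neither the zygosity of these mice, the Cre driver and the deleted part of Tsc1, the alleles carried by the controls, nor the number of mice behind each library.

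The V-ATPase pumps protons into lysosomes and into the insulin granules of β-cells; its membrane-embedded V0 sector forms the proton path and its cytosolic V1 sector hydrolyses ATP. Lysosomal hydrolases work at the acid pH this pump sets, and autophagy delivers cytoplasm and organelles to them through double-membraned autophagosomes. TFEB, TFE3 and MITF bind a palindromic promoter element shared by many lysosomal genes, and the kinase mTORC1, which TSC1 holds in check, is known to keep these factors in the cytoplasm and to inhibit the ULK1 kinase that starts autophagy.

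That promoter element is shown first because it is the sequence through which the MiT/TFE factors are known to reach lysosomal genes. RefSeq promoter windows (GRCm38.p6, 250 bases before to 50 after each annotated start) were matched for 40 of the 50 genes. TCACGTGA, which reads the same on both strands, occurred in 7 of these 40 genes (17.5%) and in 304 of all 27025 genes with a window (1.12%). The 7 were Atp6v0d1, Atp6v0e, Atp6v1a, Ctsa, Ctsd, Gla and Mcoln1. They made up 3 of 9 matched V-ATPase genes, 4 of 14 matched lysosomal genes and 0 of 14 matched autophagy genes. The shorter CACGTG, which lies inside TCACGTGA, occurred in 14 of the 40 (35%), against 8.09% of all genes. Such a match describes the letters only and is not evidence of binding. Windows of the 3 genes with TCACGTGA that were called in at least 1 comparison below are printed 5′ to 3′, with TCACGTGA in capitals. Ctsd (cathepsin D) lies at chr7:142387778-142388077 on the minus strand, Ctsa (cathepsin A) at chr2:164833523-164833822 on the plus strand, and Atp6v0d1 (the V0 d subunit) at chr8:105566015-105566314 on the minus strand.
Ctsd: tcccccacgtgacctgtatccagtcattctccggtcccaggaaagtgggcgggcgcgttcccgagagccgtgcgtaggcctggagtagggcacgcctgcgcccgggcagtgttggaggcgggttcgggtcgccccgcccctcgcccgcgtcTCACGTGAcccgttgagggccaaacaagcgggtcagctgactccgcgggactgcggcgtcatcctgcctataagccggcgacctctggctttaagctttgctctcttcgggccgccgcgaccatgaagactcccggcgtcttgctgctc
Ctsa: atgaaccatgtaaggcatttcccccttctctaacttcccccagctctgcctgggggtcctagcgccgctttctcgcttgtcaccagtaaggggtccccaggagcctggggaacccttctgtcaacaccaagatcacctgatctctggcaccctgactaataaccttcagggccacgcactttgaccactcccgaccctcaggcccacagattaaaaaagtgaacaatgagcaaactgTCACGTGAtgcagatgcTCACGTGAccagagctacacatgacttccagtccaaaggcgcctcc
Atp6v0d1: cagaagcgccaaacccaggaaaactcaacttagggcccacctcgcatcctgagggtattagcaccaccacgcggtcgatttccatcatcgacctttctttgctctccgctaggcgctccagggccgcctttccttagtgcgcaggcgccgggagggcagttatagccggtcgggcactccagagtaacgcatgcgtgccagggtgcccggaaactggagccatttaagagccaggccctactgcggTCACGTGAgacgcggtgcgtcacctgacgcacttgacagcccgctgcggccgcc
Ctsd held a single copy upstream of the start and Atp6v0d1 a single copy that straddled it, while Ctsa held a pair of copies, on either side of it. Among genes called higher in Db islets the element was present in 2 of 17 matched genes, and among those not called there in 5 of 19. It was absent from the windows of the 4 matched genes called lower in Db islets.

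Gene counts per library ranged from 3507929 to 17688772. The libraries labelled TSC1 KO stood apart from the other islet libraries in their mitochondrial and insulin shares. The share of counts from mitochondrially encoded genes was 39.8% and 46.8% for TSC1 KO and 12.4% and 9.05% for RC control libraries. Db and BKS control libraries were well below both, at 0.153% to 0.567%. The share from the insulin genes was 1.05% and 0.969% for TSC1 KO and 24.5% and 27.9% for RC control libraries. In the β-cell libraries it was 4.36% to 7.22% for adult and 1.83% to 2.62% for neonatal mice. Of 9 β-cell markers 8 were lower in TSC1 KO islets. Tsc1 itself had 31.0 and 34.5 CPM in TSC1 KO islets, against 25.1 and 54.1 CPM in RC control islets (log2 fold change -0.28 ± 0.38 SE, adjusted p = 0.638). The groups overlapped; whole islets hold cells other than β-cells and the deleted part is not given, so the Tsc1 count does not check the label. In whole islets, fewer cells of a type and less RNA per cell cannot be told apart.

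Values below are CPM, counts divided by each library’s TMM-adjusted total and put on one scale. A gene is called higher or lower where its adjusted p in the quasi-likelihood test of edgeR, corrected by the Benjamini-Hochberg method over all genes tested, is under 0.05. Nothing says that libraries of a group came from separate animals; p-values therefore reflect the spread between libraries, which may be technical. All 50 genes passed the filter on low counts in every comparison. Levels spanned a wide range. Per kilobase of exon, Psap, the saposin precursor, had the highest level in RC control islets (297.8 CPM per kb) and in BKS control islets (158 CPM per kb), and Sqstm1, the autophagy receptor p62, in neonatal β-cells (196 CPM per kb). Mitf was the lowest in all 3 of these groups, at 1.496 CPM per kb in neonatal β-cells, 0.623 in RC control islets and 0.233 in BKS control islets.

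**Figure D1:**
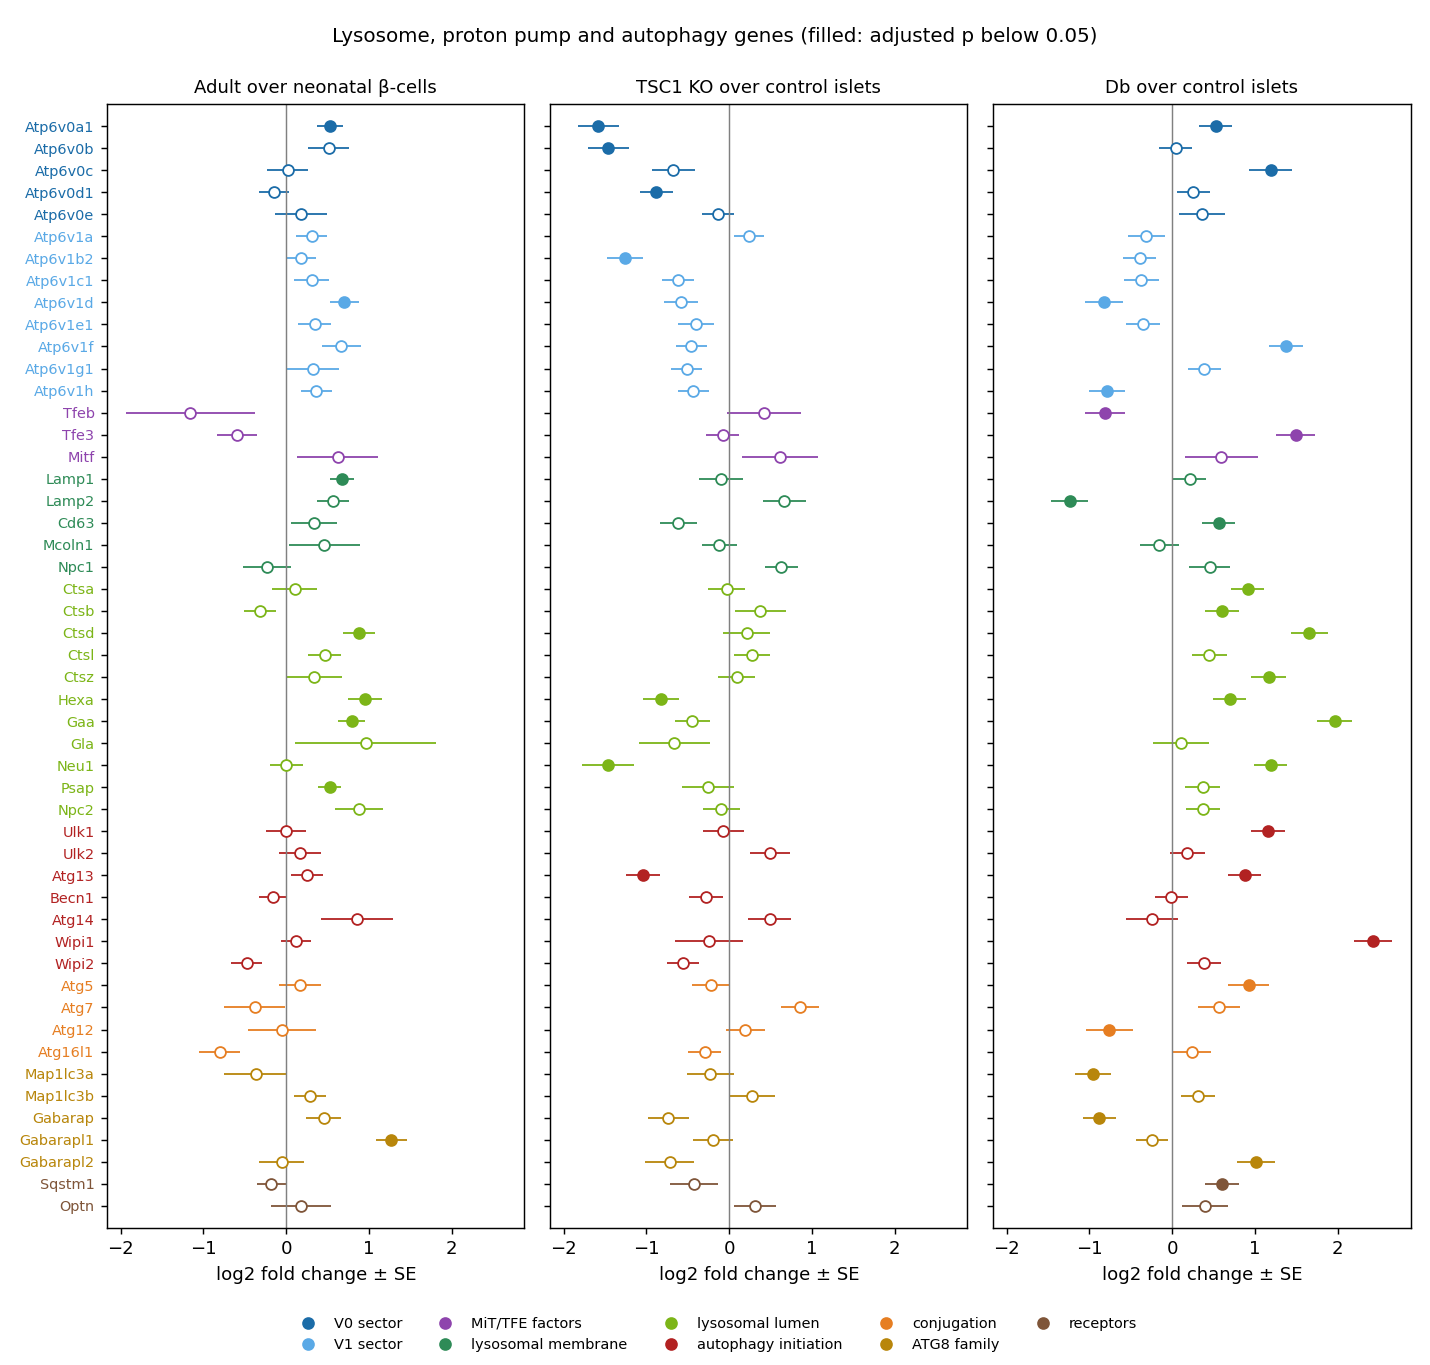
Log2 fold change ± SE of each of the 50 genes in 3 comparisons, one gene per line and coloured by class: adult over neonatal β-cells (n = 3 each), TSC1 KO over RC control islets (n = 2 each) and Db over BKS control islets (n = 2 each). Filled circles have an adjusted p below 0.05: 8 in adult β-cells, all to the right of 0, 7 in TSC1 KO islets, all to the left, and 25 in Db islets, 18 to the right and 7 to the left.

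Adult β-cells had more RNA of several lysosomal enzymes and of a lysosomal membrane protein than neonatal β-cells, together with 2 proton pump subunits and the ATG8 family member Gabarapl1. Of the 50 genes 8 were called higher (background 3.38% of 14304 genes tested) and 0 lower (background 3.6%), against 6.98% of all genes called in either direction. At an unadjusted p under 0.05, 3 of the 50 had a lower value in adult β-cells; DESeq2 called 1 lower and limma-voom 0. The median log2 fold change of the 50 was 0.29, against -0.03 over all genes. For 16 of the 50 every adult library was above every neonatal one, and for 5 below. Over all genes tested these shares were 14% and 13.4%. Scaling by library size alone put the median of all genes at -0.19 and gave 5 higher and 2 lower. Of all 14304 genes 321 were then higher and 872 lower.

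The lysosomal genes held 5 of the 8 calls, 4 of them among the 11 lumen genes. Lamp1, the abundant glycoprotein of the lysosomal membrane, had 674, 599.7 and 579.5 CPM in adult β-cells, against 414, 372 and 372 CPM in neonatal β-cells (log2 fold change 0.68 ± 0.14 SE, adjusted p = 0.00907). Ctsd, an aspartic protease, had 235, 273 and 289 CPM in adult β-cells, against 182, 109 and 143 CPM in neonatal β-cells (log2 fold change 0.88 ± 0.19 SE, adjusted p = 0.0117). Neither gene's groups overlapped. Hexa, the α subunit of β-hexosaminidase, had 197, 206 and 181 CPM in adult β-cells, against 110.4, 70.5 and 121 CPM in neonatal β-cells (log2 fold change 0.95 ± 0.21 SE, adjusted p = 0.0100). Gaa, the acid α-glucosidase that degrades lysosomal glycogen, had 298.5, 279 and 357 CPM in adult β-cells, against 191, 181 and 168 CPM in neonatal β-cells (log2 fold change 0.79 ± 0.16 SE, adjusted p = 0.00780). Every adult library was above every neonatal one for both enzymes, and the neonatal libraries were further apart for Hexa than for Gaa. Psap, whose product is cut into the saposins that assist sphingolipid hydrolases, had 709, 737 and 701 CPM in adult β-cells, against 493, 465 and 531 CPM in neonatal β-cells (log2 fold change 0.53 ± 0.14 SE, adjusted p = 0.0292), without overlap. The other 11 lysosomal genes were not called. Among them Npc2, a cholesterol carrier of the lysosomal lumen, had a log2 fold change of 0.88 ± 0.29 SE (adjusted p = 0.0808) and Lamp2 one of 0.57 ± 0.19 SE (adjusted p = 0.0968), both without overlap between groups, while Neu1 stood at 0.00 and Ctsb at -0.31.

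Of the 13 V-ATPase subunits 12 had a log2 fold change above 0, with a median of 0.33, and 2 were called. Atp6v1d, a subunit of the rotating central stalk, had 141, 144.5 and 136 CPM in adult β-cells, against 88.8, 88.1 and 82.0 CPM in neonatal β-cells (log2 fold change 0.70 ± 0.18 SE, adjusted p = 0.0240). Atp6v0a1, an isoform of the large a subunit, had 296, 272.5 and 295 CPM in adult β-cells, against 199, 184 and 212.5 CPM in neonatal β-cells (log2 fold change 0.53 ± 0.16 SE, adjusted p = 0.0499). The groups did not overlap for either subunit, and the second adjusted p was just under the threshold. Both calls were lost once the trend of each library with GC content was removed, a correction chosen after seeing the data. They were present when GC and length trends were removed together (adjusted p in edgeR = 0.0421 for Atp6v1d and 0.0402 for Atp6v0a1). Both were lost when library size alone was used for scaling.

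Gabarapl1, which encodes an ATG8 protein that is joined to lipid on autophagosome membranes, differed most among the 50 between the ages. It had 201, 172.5 and 170.1 CPM in adult β-cells, against 86.5, 67.5 and 71.4 CPM in neonatal β-cells (log2 fold change 1.27 ± 0.19 SE, adjusted p = 5.92e-04), a fold of 2.41 with no overlap. Among the 8 genes it was the one whose call was kept under all 14 alternatives. Of the 18 autophagy genes the other 17 were not called. Atg16l1, part of the complex that places ATG8 proteins on membranes, had 62.0, 61.8 and 57.4 CPM in adult β-cells, against 77.1, 149 and 90.0 CPM in neonatal β-cells, without overlap (log2 fold change -0.80 ± 0.24 SE, adjusted p = 0.0586). The median of the 18 was 0.06, and -0.10 when scaled by library size alone.

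The MiT/TFE factors were not called in adult β-cells. Tfeb had 1.405, 8.85 and 2.72 CPM in adult β-cells, against 8.98, 4.10 and 15.9 CPM in neonatal β-cells, with overlapping groups. Tfe3 had 41.1, 49.25 and 37.9 CPM in adult β-cells, against 70.0, 70.15 and 54.2 CPM in neonatal β-cells, without overlap (log2 fold change -0.60 ± 0.24 SE, adjusted p = 0.161). Mitf had 17.7, 12.85 and 12.3 CPM in adult β-cells, against 14.1, 6.99 and 6.69 CPM in neonatal β-cells, again with overlap.

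Leaving out adult replicate 1, 2 or 3 left 4, 3 and 3 of the genes called higher. Lamp1 lost its call without adult replicate 1, Hexa without replicate 2, Gaa without replicate 3, and Ctsd without replicate 2 or 3. Psap and Atp6v1d lost theirs without any of the 3 adult libraries, and Atp6v0a1 without any of the 6 libraries. Summed macrophage markers were 40.7 to 84.0 CPM in adult β-cells and 17.9 to 48.3 CPM in neonatal β-cells. Of 12 such markers 4 could be tested and 0 were called by edgeR, and C1qb, C1qc and Tyrobp were at 0 in all 6 libraries. C1qa averaged 50.3 CPM in adult and 25.4 CPM in neonatal β-cells (log2 fold change 0.98 ± 0.40 SE, adjusted p = 0.1725 in edgeR). Fcer1g was also above 0, and Cd68 and Csf1r were below 0. Of 9 β-cell markers 4 were higher, and of 7 duct markers 3 were lower, in adult β-cells. Summed mesenchymal markers were 9.44 to 38.3 CPM in adult and 5.78 to 166 CPM in neonatal β-cells, with 0 of 6 tested called. Summed acinar markers were 10.3 to 39.3 CPM in adult and 11.3 to 66.7 CPM in neonatal β-cells, with 1 of 7 tested called lower. The same neonatal library had the highest sum of both lists. The part of these cell types in the result was not tested.

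**Figure D2:**
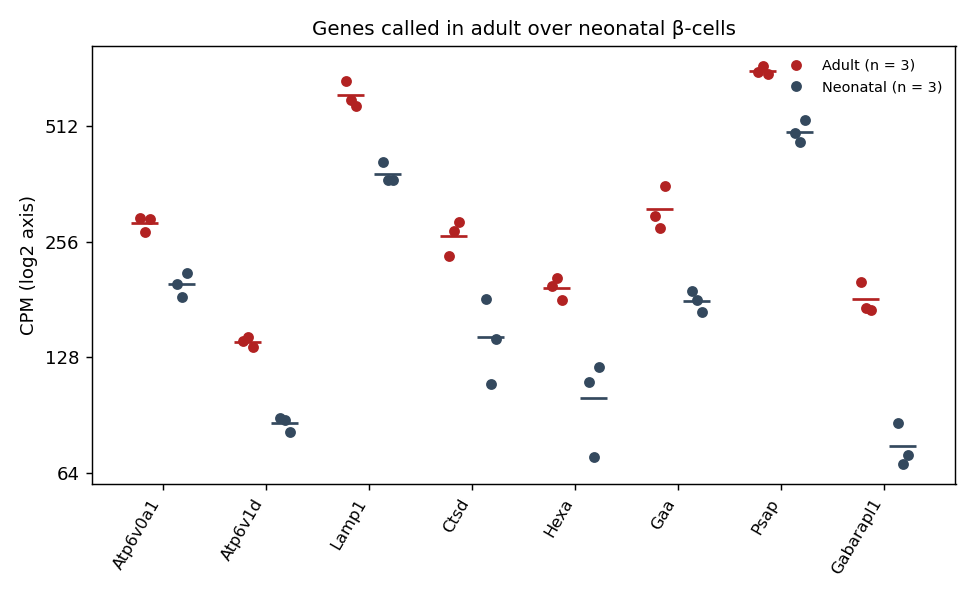
CPM of the 8 genes called in adult over neonatal β-cells, on a log2 axis; each point is a library, bars are group means, adult left (n = 3) and neonatal right (n = 3). For each of the 8 genes every adult library lies above every neonatal library, with Gabarapl1 showing the widest gap. The genes shown were picked by the test on these same libraries, which favours separated groups. Over all genes tested 14% lay without overlap higher in adult β-cells and 13.4% lower.

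In islets labelled TSC1 KO the calls fell mainly among proton pump genes. Of the 13 V-ATPase subunits 4 were called lower, 12 had a log2 fold change below 0, and in all 12 both TSC1 KO libraries were below both control libraries. Over all genes, 34% had such a gap between the groups in that direction. Of the 50 genes 7 were called lower (background 10% of 14515 genes tested) and 0 higher (background 8.63%), against 18.6% of all genes called in either direction. By edgeR 3 of the 50 had a higher value at an unadjusted p under 0.05; DESeq2 called 0 higher and limma-voom 1. The median log2 fold change was -0.24 over the 50 and -0.0031 over all genes.

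Among V0 subunits, Atp6v0a1 had 49.4 and 34.45 CPM in TSC1 KO islets, against 119 and 133 CPM in RC control islets (log2 fold change -1.58 ± 0.25 SE, adjusted p = 0.0164), 2.99-fold lower. Atp6v0b, a proteolipid of the proton-carrying ring, had 79.7 and 59.2 CPM in TSC1 KO islets, against 195 and 187 CPM in RC control islets (log2 fold change -1.46 ± 0.25 SE, adjusted p = 0.01875). Atp6v0d1, which joins the ring to the central stalk, had 56.4 and 55.5 CPM in TSC1 KO islets, against 111 and 94.6 CPM in RC control islets (log2 fold change -0.88 ± 0.20 SE, adjusted p = 0.0361). None of these 3 genes showed overlap between groups, and the median of the 5 V0 subunits was -0.88. Of the 8 V1 subunits Atp6v1b2, which encodes the B subunit of the ATP-hydrolysing ring, was called. It had 64.3 and 73.2 CPM in TSC1 KO islets, against 159 and 170.4 CPM in RC control islets (log2 fold change -1.26 ± 0.22 SE, adjusted p = 0.0192). The median of the V1 subunits was -0.49. Atp6v1a, encoding the catalytic A subunit, was the subunit above 0, with 53.8 and 54.2 CPM in TSC1 KO islets, against 47.4 and 44.3 CPM in RC control islets (log2 fold change 0.24 ± 0.18 SE, adjusted p = 0.397). Scaling by library size alone put the median of all genes at -0.25. Atp6v1a was then below 0 as well, and 7 subunits were called lower, as were 1961 of all 14515 genes.

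Lysosomal genes differed less as a class, with a median of -0.10 and 2 of 16 called. Neu1, the lysosomal sialidase, had 30.5 and 16.05 CPM in TSC1 KO islets, against 64.3 and 65.6 CPM in RC control islets (log2 fold change -1.46 ± 0.32 SE, adjusted p = 0.0309). Hexa had 82.3 and 69.6 CPM in TSC1 KO islets, against 128 and 141 CPM in RC control islets (log2 fold change -0.82 ± 0.22 SE, adjusted p = 0.0489). Both genes were separated between groups, with Neu1 lowest in the second TSC1 KO library. The proteases were not called and lay on both sides of 0: Ctsd had 317 and 278 CPM in TSC1 KO islets, against 289 and 226 CPM in RC control islets, with overlap, and Ctsb had 348 and 325 CPM in TSC1 KO islets, against 308 and 210.5 CPM in RC control islets. Lamp2 had 91.1 and 130.4 CPM in TSC1 KO islets, against 76.8 and 62.8 CPM in RC control islets (log2 fold change 0.66 ± 0.26 SE, adjusted p = 0.121), so that its values were above those of the controls in both libraries without passing the test.

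Of the autophagy genes Atg13, which encodes the adaptor subunit of the ULK1 kinase complex, was called. It had 40.1 and 36.45 CPM in TSC1 KO islets, against 71.9 and 86.1 CPM in RC control islets (log2 fold change -1.04 ± 0.20 SE, adjusted p = 0.0243). Its kinase partner Ulk1 had 53.8 and 50.2 CPM in TSC1 KO islets, against 44.2 and 65.0 CPM in RC control islets, with overlap (adjusted p = 0.857). Atg7, the activating enzyme of both conjugation systems, had 31.9 and 29.1 CPM in TSC1 KO islets, against 19.1 and 14.7 CPM in RC control islets (log2 fold change 0.85 ± 0.23 SE, adjusted p = 0.0527), just short of the threshold, and it was called higher with the GC trend removed. The 5 ATG8 genes were not called; their log2 fold changes ran from -0.74 for Gabarap to 0.28 for Map1lc3b.

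The MiT/TFE factors, which are known targets of mTORC1 at the protein level, were not called at the RNA level. Tfeb had 14.2 and 14.7 CPM in TSC1 KO islets, against 15.3 and 6.33 CPM in RC control islets (adjusted p = 0.538). Tfe3 had 37.5 and 32.1 CPM in TSC1 KO islets, against 36.8 and 36.8 CPM in RC control islets (adjusted p = 0.809). Mitf had 4.66 and 7.36 CPM in TSC1 KO islets, against 3.16 and 4.56 CPM in RC control islets (adjusted p = 0.376). The spread within groups covered the difference for Tfeb and Tfe3, while the Mitf groups did not overlap. Removing the second RC control library turned the Tfeb log2 fold change to -0.088, and removing the second TSC1 KO library turned that of Tfe3 to 0.025.

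Without either TSC1 KO library 0 genes of any kind were called by edgeR, and 3535 and 3061 genes had an unadjusted p under 0.05. At that level 8 of the 50 were lower and 1 higher without the first TSC1 KO library, and 6 lower and 1 higher without the second. With mitochondrially encoded and insulin genes left out, the 50 again gave 7 lower and 0 higher. Of the 7 calls Hexa alone was lost when the GC trend was removed. Summed macrophage markers were 392 and 397 CPM in TSC1 KO islets and 469 and 380.2 CPM in RC control islets, 1 of 12 called lower. Summed duct markers were 2158 and 2927 CPM in TSC1 KO islets and 933 and 283 CPM in RC control islets, 2 of 7 called higher. Summed endothelial markers were 4525 and 3368 CPM in TSC1 KO islets and 2110 and 2347 CPM in RC control islets, 2 of 6 called higher. Summed mesenchymal markers were 633 and 4322 CPM in TSC1 KO islets and 528 and 252 CPM in RC control islets, with no marker past the test. The part of the lower β-cell markers and of these other cell types in the 7 calls was not tested.

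**Figure D3:**
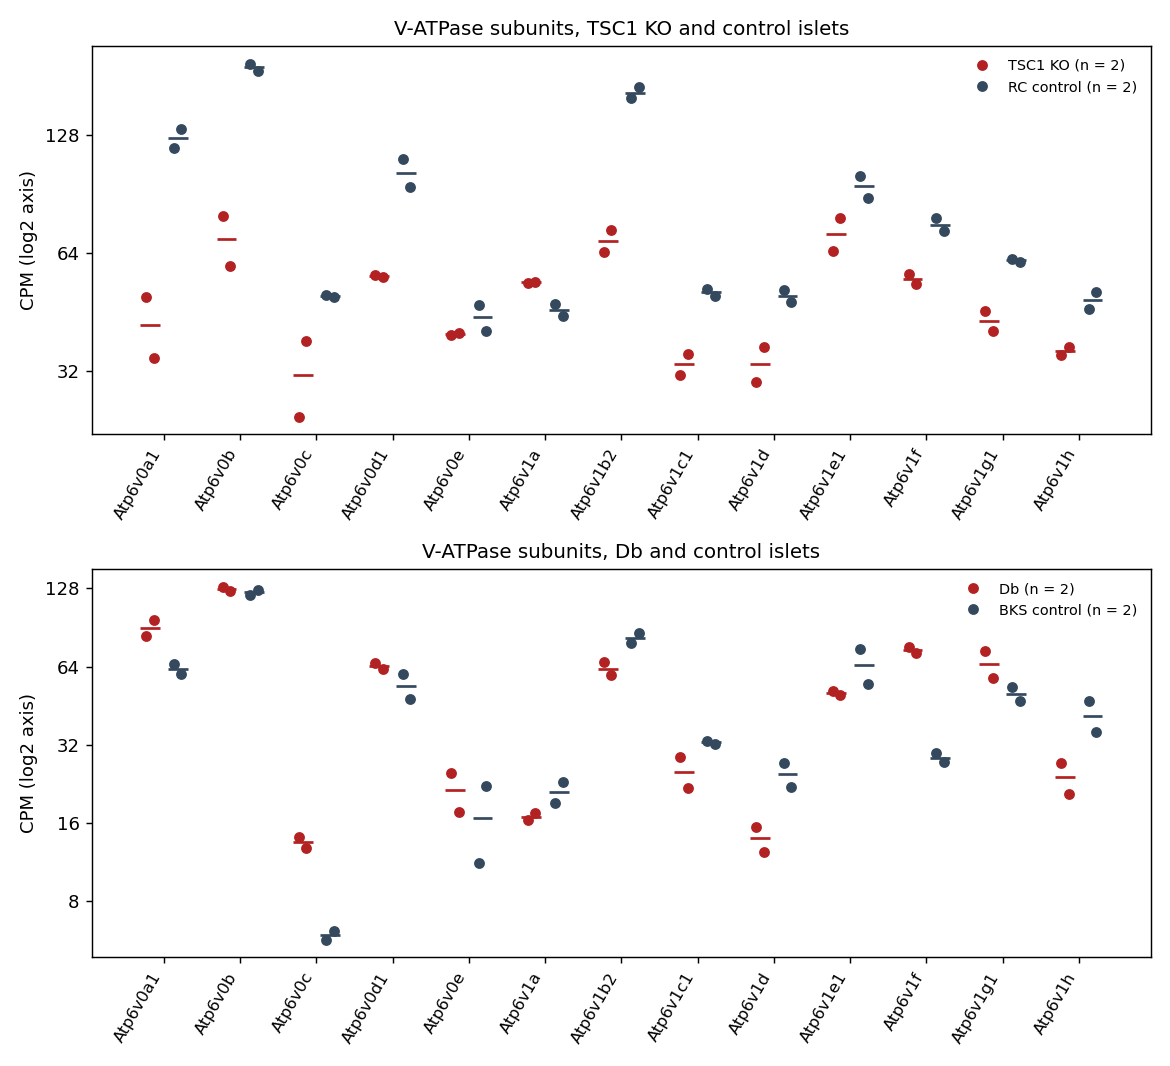
CPM of the 13 V-ATPase subunits per library on a log2 axis, bars at group means: TSC1 KO left and RC control right in the upper panel (n = 2 each), Db left and BKS control right in the lower panel (n = 2 each). In the upper panel TSC1 KO points lie below the control points for every subunit except Atp6v1a; in the lower panel Atp6v0c and Atp6v1f lie above and Atp6v1d and Atp6v1h below the controls.

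In Db islets 7 of 11 genes of the lysosomal lumen were higher, led by acid α-glucosidase and cathepsin D, and the early autophagy gene Wipi1 differed most of all 50. Of the 50 genes 18 were called higher (background 24.3% of 14369 genes tested) and 7 lower (background 23.9%), in all 25, against 48.2% of all genes called in either direction. Their median log2 fold change was 0.38, against -0.03 over all genes. Scaling by library size alone put the median of all genes at 0.29 and gave 20 higher and 1 lower. Of all 14369 genes 3983 were then higher and 1562 lower.

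Of the 11 lumen genes 7 were called higher and 0 lower, and for all 11 both Db libraries were above both control libraries; over all genes 37.2% showed that gap. At an unadjusted p under 0.05, 0 of the 11 had a lower value, and DESeq2 and limma-voom called 0 lower. Gaa had 405 and 389 CPM in Db islets, against 109.9 and 94.0 CPM in BKS control islets (log2 fold change 1.96 ± 0.21 SE, adjusted p = 2.29e-08), a fold of 3.90. Ctsd had 349 and 373.5 CPM in Db islets, against 139.5 and 89.5 CPM in BKS control islets (log2 fold change 1.66 ± 0.22 SE, adjusted p = 1.08e-06). The groups were far apart in both genes. Neu1 had 137 and 127 CPM in Db islets, against 60.4 and 55.3 CPM in BKS control islets (log2 fold change 1.19 ± 0.20 SE, adjusted p = 2.14e-05). Ctsz, a carboxypeptidase also called cathepsin X, had 55.1 and 69.8 CPM in Db islets, against 31.2 and 24.4 CPM in BKS control islets (log2 fold change 1.17 ± 0.21 SE, adjusted p = 5.69e-05). These 4 lumen genes were called under all 13 alternatives.

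The 3 other lumen genes called were closer to the spread between libraries. Ctsa, the carboxypeptidase that protects NEU1 and β-galactosidase, had 79.3 and 86.7 CPM in Db islets, against 46.7 and 41.3 CPM in BKS control islets (log2 fold change 0.91 ± 0.20 SE, adjusted p = 4.74e-04). Hexa had 144 and 138 CPM in Db islets, against 94.8 and 79.3 CPM in BKS control islets (log2 fold change 0.69 ± 0.20 SE, adjusted p = 0.005505). Ctsb, a cysteine protease, had 112 and 151 CPM in Db islets, against 94.5 and 79.2 CPM in BKS control islets (log2 fold change 0.60 ± 0.21 SE, adjusted p = 0.0179). The calls of Ctsa and Hexa were lost when the GC trend was removed, at log2 fold changes of 0.43 and 0.20. Ctsl, Psap, Npc2 and Gla were not called, with log2 fold changes between 0.11 and 0.45.

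The lysosomal membrane genes moved in both directions. Lamp2, needed for fusion of autophagosomes with lysosomes and, as its A isoform, for chaperone-mediated autophagy, had 20.2 and 14.0 CPM in Db islets, against 44.0 and 36.45 CPM in BKS control islets (log2 fold change -1.24 ± 0.22 SE, adjusted p = 4.68e-05). Cd63, a tetraspanin of late endosomes and lysosomes, had 118 and 108 CPM in Db islets, against 80.5 and 72.5 CPM in BKS control islets (log2 fold change 0.56 ± 0.20 SE, adjusted p = 0.0203). Neither gene's groups overlapped, and both calls were lost with the GC trend removed, where Lamp2 stood at -0.42 and Cd63 at 0.14. Lamp1 had 253 and 244 CPM in Db islets, against 219.8 and 209.7 CPM in BKS control islets (adjusted p = 0.4015), and the calcium channel gene Mcoln1 and the cholesterol exporter gene Npc1 were not called either.

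The 3 MiT/TFE factors had unlike values. Tfe3 had 31.7 and 36.1 CPM in Db islets, against 9.21 and 15.0 CPM in BKS control islets (log2 fold change 1.49 ± 0.24 SE, adjusted p = 1.04e-05). Tfeb had 9.23 and 7.71 CPM in Db islets, against 15.4 and 14.25 CPM in BKS control islets (log2 fold change -0.81 ± 0.24 SE, adjusted p = 0.007205). Tfe3 was thus called higher and Tfeb lower, with no overlap for either. Mitf had 2.93 and 1.503 CPM in Db islets, against 1.61 and 1.28 CPM in BKS control islets (log2 fold change 0.59 ± 0.44 SE, adjusted p = 0.275), with overlap, the lowest level per kilobase among the 50. Tfe3 was called under all 13 alternatives; Tfeb lost its call when scaled by library size alone and without the second Db library.

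The proton pump subunits did not move together. In the V0 sector Atp6v0c, the proteolipid that forms most of the proton-carrying ring, had 14.15 and 12.85 CPM in Db islets, against 5.68 and 6.16 CPM in BKS control islets (log2 fold change 1.19 ± 0.26 SE, adjusted p = 4.76e-04). Atp6v0a1 had 84.15 and 96.9 CPM in Db islets, against 65.5 and 60.1 CPM in BKS control islets (log2 fold change 0.53 ± 0.20 SE, adjusted p = 0.0291). Both were higher without overlap. In the V1 sector Atp6v1f, a small subunit of the central stalk, had 76.0 and 72.2 CPM in Db islets, against 29.7 and 27.5 CPM in BKS control islets (log2 fold change 1.38 ± 0.20 SE, adjusted p = 3.37e-06). Atp6v1d had 15.5 and 12.4 CPM in Db islets, against 27.2 and 22.1 CPM in BKS control islets (log2 fold change -0.82 ± 0.22 SE, adjusted p = 0.00344). Atp6v1h, a regulatory subunit, had 27.3 and 20.75 CPM in Db islets, against 47.0 and 35.9 CPM in BKS control islets (log2 fold change -0.79 ± 0.22 SE, adjusted p = 0.00350). Stalk subunits therefore differed in sign, F higher and D lower. The median of the 8 V1 subunits was -0.37 and turned to 0.08 with the GC trend removed, where Atp6v1h stood at 0.10 and neither it nor Atp6v1d was called. The median of the 5 V0 subunits was 0.36 and 0.72 with the GC trend removed, though then 3 of the 5 were above 0.

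Among the genes that start autophagy, Wipi1 had 96.5 and 123 CPM in Db islets, against 17.0 and 24.0 CPM in BKS control islets (log2 fold change 2.42 ± 0.22 SE, adjusted p = 1.45e-09), a fold of 5.37. WIPI1 binds the phosphoinositide made at forming autophagosomes. Its paralogue Wipi2 had 51.9 and 61.9 CPM in Db islets, against 49.6 and 37.2 CPM in BKS control islets (log2 fold change 0.39 ± 0.21 SE, adjusted p = 0.120). Ulk1, the kinase at the head of the pathway, had 49.8 and 50.1 CPM in Db islets, against 20.8 and 24.1 CPM in BKS control islets (log2 fold change 1.155 ± 0.21 SE, adjusted p = 4.93e-05). Atg13 had 95.6 and 89.0 CPM in Db islets, against 50.2 and 50.3 CPM in BKS control islets (log2 fold change 0.88 ± 0.20 SE, adjusted p = 6.56e-04). Both members of the kinase complex were therefore called higher, with close values within each group. The Atg13 call was lost with GC and length trends removed, at a log2 fold change of 0.47, while Ulk1 kept its call. Ulk2, Becn1 and Atg14 were not called, at log2 fold changes of 0.18, -0.01 and -0.25.

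The conjugation genes and ATG8 family split. Atg5, whose product is joined to ATG12, had 16.6 and 14.1 CPM in Db islets, against 8.03 and 8.09 CPM in BKS control islets (log2 fold change 0.93 ± 0.25 SE, adjusted p = 0.00295). Atg12 had 4.92 and 4.17 CPM in Db islets, against 6.96 and 8.47 CPM in BKS control islets (log2 fold change -0.76 ± 0.29 SE, adjusted p = 0.0295). The partners thus had opposite signs, and the call of Atg12, at low counts, was lost under 8 of 13 alternatives. Gabarapl2 had 20.5 and 20.55 CPM in Db islets, against 9.21 and 11.2 CPM in BKS control islets (log2 fold change 1.01 ± 0.23 SE, adjusted p = 7.89e-04). Gabarap had 92.3 and 79.8 CPM in Db islets, against 166 and 151 CPM in BKS control islets (log2 fold change -0.88 ± 0.20 SE, adjusted p = 7.00e-04). Map1lc3a, one of the LC3 genes, had 33.1 and 27.4 CPM in Db islets, against 68.65 and 48.5 CPM in BKS control islets (log2 fold change -0.96 ± 0.21 SE, adjusted p = 5.51e-04). Gabarapl2 was higher and the other 2 lower, all without overlap, and the 2 lower calls were lost when scaled by library size alone. Map1lc3b and Gabarapl1 were not called. Sqstm1, whose protein p62 links ubiquitinated cargo to ATG8 proteins, had 473.5 and 470.3 CPM in Db islets, against 301 and 321 CPM in BKS control islets (log2 fold change 0.60 ± 0.21 SE, adjusted p = 0.0180). That call was lost with the GC trend removed, at a log2 fold change of 0.14, and without either Db library. Optn, another receptor gene, was not called.

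**Figure D4:**
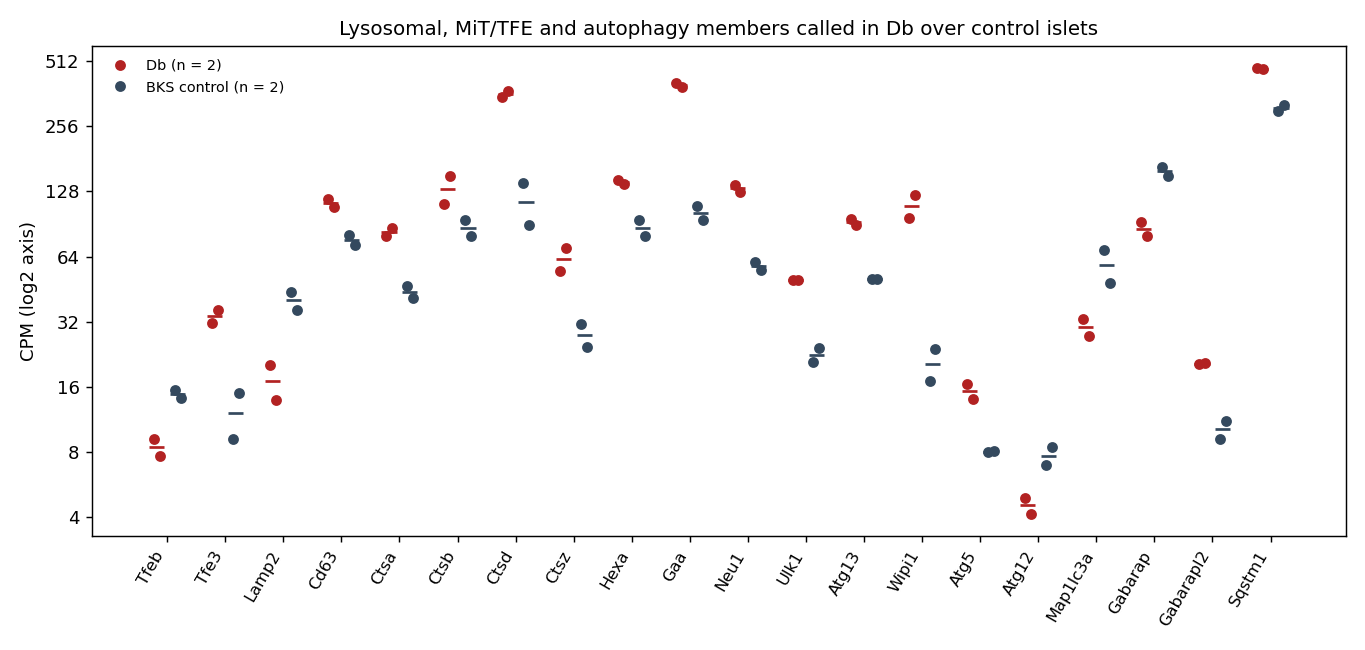
CPM of the 20 lysosomal, MiT/TFE and autophagy genes called in Db over BKS control islets, on a log2 axis; each point is a library, bars are group means, Db left (n = 2) and BKS control right (n = 2). Points of the groups do not overlap for any of the 20 genes, with Wipi1, Gaa and Ctsd furthest above the controls and Lamp2 furthest below. The genes shown were picked by the test on these same libraries, which favours separated groups. Over all genes tested 37.2% lay without overlap above the controls and 37.5% below.

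Calls in this comparison moved with GC content. The median GC content of the longest transcript was 53.7% for all genes called higher in Db islets and 45.8% for all genes called lower, and 53.3% and 44.3% for those among the 50. With the trend removed, 14 of the 18 higher and 3 of the 7 lower calls among the 50 were kept. Cd63, Ctsa, Hexa and Sqstm1 were lost among the higher and Atp6v1d, Atp6v1h, Lamp2 and Atg12 among the lower. Atp6v0e, Mitf, Npc1, Ctsl and Atg16l1 were newly called higher, and Atp6v1b2 and Gabarapl1 newly lower. In all, 19 of the 50 were then called higher (background 19.8%) and 5 lower (background 19.7%). Atp6v0c, Atp6v1f, Tfe3, Ctsd, Ctsz, Gaa, Neu1, Ulk1, Wipi1, Atg5 and Gabarapl2, 11 of the 25 called, were called under all 13 alternatives. Without the first or the second Db library 14 were called higher each time, and 6 and 3 lower. Without the first or the second control library, 23 and 20 were called higher and 7 lower each time.

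**Figure D5:**
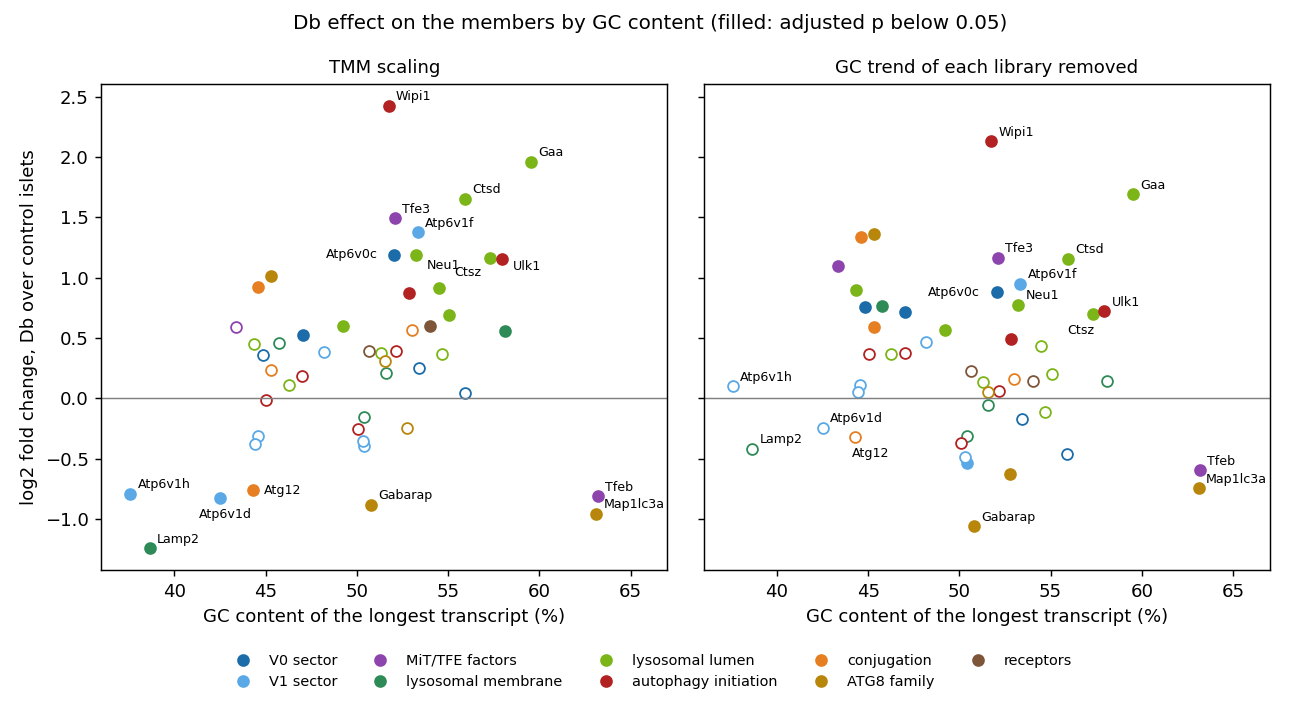
Log2 fold change of the 50 genes in Db over BKS control islets against the GC content of the longest transcript (percent), coloured by class, with TMM scaling on the left and with the GC trend of each library removed on the right; filled circles have an adjusted p below 0.05. On the left Lamp2, Atp6v1h and Atp6v1d, all of low GC content, are called below 0; on the right they are not called, while Wipi1, Gaa, Ctsd and Tfe3 are called above 0 in both panels.

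Macrophages are rich in lysosomal enzymes, and their 12 markers summed to 170 and 141 CPM in Db islets, against 189 and 186 CPM in BKS control islets, with 0 called higher by edgeR and 4 lower. Summed acinar markers were 294 and 135 CPM in Db islets and 28.6 and 23.6 CPM in BKS control islets, with 6 of 9 tested called higher and 1 lower. Summed mesenchymal markers were 509.7 and 472 CPM in Db islets and 167.5 and 264 CPM in BKS control islets, with 4 of 6 tested called higher. Summed duct markers were 747 and 712 CPM in Db islets and 293 and 289.8 CPM in BKS control islets, with 2 of 6 tested called higher and 2 lower. Summed endothelial markers were 561 and 557 CPM in Db islets and 793 and 762 CPM in BKS control islets, with 2 of 6 called higher and 3 lower. Of 9 β-cell markers 1 was higher and 6 lower. The insulin genes took 48.3% and 45.5% of counts in Db islets and 61.0% and 70.0% in BKS control islets. The part of these cell types in the calls was not tested. With mitochondrially encoded and insulin genes left out, 18 of the 50 were again called higher and 7 lower.

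The TSC1 KO and Db effects were compared in a joint fit of the 8 islet libraries, each effect taken within its own table. The tables also differ in prefix and age, which cannot be told apart from genotype. Gene counts per library and mitochondrial shares differed between the tables too. The TSC1 KO effect minus the Db effect was called below 0 for 22 of the 50 genes (background 18.6% of 15702 genes tested) and above 0 for 1 (background 13.2%), against 31.8% of all genes called in either direction. The median difference was -0.60 over the 50 and 0.0013 over all genes. Of the 18 genes called higher in Db islets 17 were among the 22. The Db effect is subtracted in the difference, so that genes higher in Db islets are placed toward values below 0; of all 3442 such genes tested in both fits 56.4% were called below 0.

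The 4 genes called lower in TSC1 KO islets and higher in Db islets were Neu1, Atp6v0a1, Atg13 and Hexa. Of all 12158 genes tested in the 3 comparisons 3.58% had that pair of calls. Each of the 4 was also called in the difference. Genes picked for opposite calls in the same libraries are placed toward such a call, which is therefore no separate evidence. For Neu1 the TSC1 KO effect minus the Db effect was -2.74 ± 0.36 SE, adjusted p = 2.17e-04; for Atp6v0a1 it was -2.20 ± 0.31 SE, adjusted p = 3.41e-04; for Atg13 it was -2.01 ± 0.28 SE, adjusted p = 3.11e-04; for Hexa it was -1.60 ± 0.29 SE, adjusted p = 0.00160. The difference was called for all 4 under all 17 alternatives, but none of the 4 kept all its single calls. Their TSC1 KO calls, like those of all genes, were lost without either TSC1 KO library. The Db call of Atp6v0a1 was lost without either Db library and that of Hexa without the first. Atg13 lost its Db call with GC and length trends removed, while Neu1 kept its Db call under all 13 alternatives. Hexa lost both its TSC1 KO call and its Db call with the GC trend removed. Atg13 and Hexa lost their TSC1 KO calls with the replicate block. The difference was largest in size for Wipi1, -2.76 ± 0.51 SE, adjusted p = 0.00293, whose values were 21.4 and 24.1 CPM in TSC1 KO islets, against 16.3 and 37.5 CPM in RC control islets, with overlap. Gaa had a difference of -2.50 ± 0.30 SE, adjusted p = 1.21e-04, with 96.5 and 103 CPM in TSC1 KO islets, against 129.9 and 143 CPM in RC control islets (adjusted p = 0.180). Among V0 subunits 4 of 5 were called, from -1.22 for Atp6v0d1 to -2.20 for Atp6v0a1. Lamp2 was the gene whose difference was called above 0, 1.81 ± 0.35 SE, adjusted p = 0.00236, from a TSC1 KO effect of 0.66 that was not called and a Db effect of -1.24 that was. Atp6v1g1, a V1 stalk subunit, and Wipi2 were called in the difference and in no single comparison. Atp6v1g1 had 45.4 and 40.5 CPM in TSC1 KO islets, against 61.9 and 60.9 CPM in RC control islets, and 73.7 and 57.8 CPM in Db islets, against 53.3 and 47.1 CPM in BKS control islets, with a difference of -0.99 ± 0.29 SE, adjusted p = 0.02135. Wipi2 had 54.5 and 57.2 CPM in TSC1 KO islets, against 76.15 and 88.0 CPM in RC control islets, with a difference of -1.03 ± 0.30 SE, adjusted p = 0.02045. Tfe3 differed (-1.65 ± 0.34 SE, adjusted p = 0.00350), and Tfeb, at 1.14 ± 0.49 SE, adjusted p = 0.08995, did not pass the test. With the GC trend removed 16 differences were called below 0 (background 15.9%) and 1 above (background 11.2%). Atp6v0d1, Cd63, Ctsa, Ctsd, Ctsz, Ulk1, Wipi2 and Sqstm1 lost their calls.

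Over the 3 comparisons 31 of the 50 genes were called at least once and 19 in none. Of all 12158 genes tested in the 3 comparisons 60.2% were called at least once, a share near that of the 50. Ctsd, Gaa, Hexa and Atp6v0a1 were called higher both in adult β-cells and in Db islets, as were 0.905% of all genes tested in the 3 comparisons. Of these 4, Hexa lost its Db call with the GC trend removed, and Atp6v0a1 kept its adult call under 4 of 14 alternatives. Atp6v1d was called higher in adult β-cells and lower in Db islets. Both of its calls were lost with the GC trend removed, and both were lost when scaled by library size alone. The 19 without a call were Atp6v0e, Atp6v1a, Atp6v1c1, Atp6v1e1, Atp6v1g1, Mitf, Mcoln1, Npc1, Ctsl, Gla, Npc2, Ulk2, Becn1, Atg14, Wipi2, Atg7, Atg16l1, Map1lc3b and Optn. A p above the threshold does not show that their levels were alike.

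Some counts may hold reads of other genes. No source used here gives the strand setting of the counting, and exons of 16 of the 50 genes share bases with a gene on the other strand, among them 3104 bases for Becn1, 1742 for Ctsl, 819 for Ctsa, 774 for Ctsb, 601 for Npc1, 580 for Sqstm1 and 570 for Gabarapl1. Atp6v0c and Cd63 have annotated pseudogene copies, so their counts are uncertain too.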

How the data were processed

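The deposited values were raw gene counts, whole numbers of reads per gene, in 3 tables made by the authors. Per the labels' protocols, Trizol was used for islet RNA and the SMARTer Stranded kit for libraries. GSNAP, HTSeq 0.7.1, cutadapt 1.13 and DESeq2 1.16.0 are named, per the submitters' processing notes, with the builds NCBIM37 and mm9 and no roles. Symbols, exon lengths and GC content came from GENCODE on GRCm38 (32620 of 37310 identifiers matched), and promoter sequences from RefSeq on GRCm38.p6, so that gene coordinates of the authors' build are not used here. Rows naming no gene were left out of totals. Gene rows held 24.52% to 44.27% of the reads in the β-cell and BKS tables; the RC table has no such rows. Among the neonatal columns 2 carry the number 3; all 3 were used as a group.

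Each comparison was fitted within its table with edgeR 4.0.16 in R 4.3.3 (filterByExpr with minimum count 10 and minimum total 15, TMM scaling, robust quasi-likelihood F test, two-sided, Benjamini-Hochberg threshold 0.05). The fits were tested on simulated data. Alternatives were library size as the only scaling, RLE factors, DESeq2 1.42.0, limma-voom (limma 3.58.1), no filter, mitochondrial and insulin genes left out, a replicate block and each library left out; removal of GC and length trends was added after seeing the data. The genes, lists and tests were chosen with earlier results of these data known. Called genes, and the 3 MiT/TFE factors, are named with values in each library; outside the 50, up to 3 genes per list and direction are named, and some are not reported here. Precision is limited by counting error and by 2 or 3 libraries a group.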

Additional observations from a re-analysis of the deposited data

Results flagged for a closer look

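The TSC1 KO effect and the Db effect differed by the joint edgeR test for 23 of the 50 genes, against 31.8% of all genes. Each effect is the log2 fold change over its own controls, and values here are the first minus the second. Of the 22 differences below 0, 17 were of genes called higher in Db islets. Of all genes called higher there 56.4% were called below 0. With the GC trend removed 14 of the 22 were kept. Table, prefix, age and genotype cannot be told apart. Among V-ATPase subunits the differences were -2.20 for Atp6v0a1, -1.59 for Atp6v0b, -1.96 for Atp6v0c, -1.22 for Atp6v0d1, -0.95 for Atp6v1b2, -1.92 for Atp6v1f and -0.99 for Atp6v1g1. Tfe3 differed by -1.65. Among lysosomal genes Lamp2 had 1.81, called above 0, while Cd63 had -1.27, Ctsa -1.03, Ctsd -1.54, Ctsz -1.16, Hexa -1.60, Gaa -2.50 and Neu1 -2.74. Among autophagy genes the values were -1.31 for Ulk1, -2.01 for Atg13, -2.76 for Wipi1, -1.03 for Wipi2, -1.24 for Atg5, -1.82 for Gabarapl2 and -1.12 for Sqstm1. Of these 23, 12 were called under all 17 alternatives: Atp6v0a1, Atp6v0b, Atp6v0c, Atp6v1f, Tfe3, Lamp2, Hexa, Gaa, Neu1, Atg13, Wipi1 and Gabarapl2.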

How the results depend on the processing

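Adult over neonatal β-cells: DESeq2 called 1588 genes, and with single libraries left out between 405 and 1380 were called. Among the 50, library size as the only scaling gave 5 higher and 2 lower; 1 was lower with DESeq2, with no filter on low counts and with either trend correction. Leaving out single libraries gave 3 to 8 higher and 0 to 1 lower.

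TSC1 KO over RC control islets: leaving out single libraries gave 0 to 4015 genes called, 0 to 2 of the 50 higher and 0 to 8 lower. Of the 50, 1 was higher with limma-voom, with no filter and with either trend correction. With library size as the only scaling 11 were lower, as were 1961 of all 14515 genes. Tfeb turned to -0.088 without RC control replicate 2 (1.19 at the other end of its range) and Tfe3 to 0.025 without TSC1 KO replicate 2 (-0.20 at the other end).

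Db over BKS control islets: single libraries left out gave 4419 to 6666 genes called and 3 to 7 of the 50 lower; library size as the only scaling gave 1 lower. Atp6v1h turned to 0.10 with the GC trend removed and to 0.073 with the GC and length trends removed. For the difference of the effects, leaving out single libraries gave 2910 to 5909 genes and 1 to 3 of the 50 above 0; removing GC and length trends gave 2 above 0. Mitf turned to 0.016 with limma-voom; with single libraries left out it ran from -0.50 to 0.47. The causes were not tested.

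Same-numbered deviations of the islet samples correlated at -0.055 (RC) and -0.035 (BKS) over 2 pairs each. With so few libraries, these values do not show pairing by replicate number and cannot exclude it. With the replicate block 1648 genes were called in TSC1 KO islets and 4 of the 50 were lower, Atp6v0d1, Hexa and Atg13 losing their calls; in Db islets 18 were higher and 7 lower, and the difference gave 1 above 0 and 21 below. No paired analysis was possible because 2 neonatal columns carry the number 3 and none the number 2, for adult against neonatal β-cells. A fit without a library of a group of 2 assumes that the lone library varies like the other group.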

Other observations

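Genes of the same pathways outside the 50 showed the following. In adult β-cells 6 of 43 tested further lysosomal genes were called higher by edgeR, against 3.38% of all genes. They were led by the lysosomal phospholipase gene Pla2g15 (log2 fold change 1.53 ± 0.35 SE), the aspartylglucosaminidase gene Aga (1.33 ± 0.31 SE) and the legumain gene Lgmn (1.15 ± 0.33 SE). Of 36 further autophagy genes 2 were called higher, a share near that of all genes, the mitophagy receptor Bnip3 (1.48 ± 0.32 SE) and the cargo receptor Tax1bp1 (0.65 ± 0.15 SE). The calls of Aga, Bnip3, Lgmn, Pla2g15 and Tax1bp1 were each lost without at least 1 adult library.

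In TSC1 KO islets, where 8.63% of all genes were called higher and 10% lower, 2 of 7 tested further V-ATPase genes were lower, Atp6v0e2 (-1.40 ± 0.19 SE) and the accessory subunit gene Atp6ap2 (-0.76 ± 0.20 SE). Of 46 further lysosomal genes 4 were higher, with Gnptab (1.14 ± 0.20 SE), Manba (1.07 ± 0.21 SE) and Gm2a (1.06 ± 0.24 SE) at the head, and 3 lower, among them Gnptg (-1.79 ± 0.23 SE) and Ctsf (-1.02 ± 0.22 SE). Both counts were close to or below the shares of all genes. Gnptab and Gnptg encode subunits of the same enzyme, which tags hydrolases with mannose 6-phosphate, and their calls had opposite signs. Of 36 further autophagy genes 2 were lower, Atg16l2 (-2.13 ± 0.24 SE) and Tmem41b (-1.26 ± 0.29 SE). All of these calls were lost without either TSC1 KO library.

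In Db islets, where 24.3% of all genes were called higher and 23.9% lower, 20 of 45 tested further lysosomal genes were higher, led by Aga (1.89 ± 0.22 SE), Gnptg (1.66 ± 0.21 SE) and Gm2a (1.495 ± 0.25 SE), and 4 lower, among them the cathepsin genes Ctss (-0.80 ± 0.30 SE) and Ctso (-0.77 ± 0.25 SE). With the GC trend removed these counts were 15 and 2, against 19.8% and 19.7% of all genes, and Ctss and Ctso lost their calls. Of 36 further autophagy genes 11 were higher, led by Vamp8 (1.57 ± 0.21 SE), Plekhm1 (1.26 ± 0.24 SE) and Tecpr1 (1.18 ± 0.22 SE), which act in autophagosome and lysosome fusion, and 4 lower, including Tax1bp1 (-1.12 ± 0.22 SE), Atg10 (-1.11 ± 0.38 SE) and Uvrag (-0.87 ± 0.21 SE). The share of autophagy genes called higher was near that of all genes and the share called lower was below it. With the GC trend removed 6 were higher and 1 lower, and Tax1bp1 and Atg10 lost their calls. Of 7 tested further V-ATPase genes 4 were higher, including Atp6v0a2 (1.09 ± 0.21 SE), Atp6v0e2 (1.07 ± 0.21 SE) and the sparsely counted Atp6v0a4 (3.97 ± 0.99 SE), and Atp6ap2 was lower (-0.81 ± 0.20 SE). The Atp6ap2 call was lost with the GC trend removed and with library size as the only scaling.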
